A study of Homo sapiens with 27 samples.

Results

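The genes described here encode the cytoplasmic actins and a set of tubulins, measured in U2OS cells, a human osteosarcoma line. They were taken by gene symbol, through the Ensembl identifiers of the expression table, and not by their values. All 10 named genes were found among the 34464 genes of the table, and all 10 passed the filter of a mean above 1 FPKM (fragments per kilobase of transcript, scaled to the number of mapped fragments), which 14611 genes passed outside the mitochondrial genome. They are the beta- and gamma-actin genes ACTB and ACTG1, the alpha-tubulin genes TUBA1A, TUBA1B and TUBA1C, the beta-tubulin genes TUBB, TUBB2A, TUBB4B and TUBB6, and the gamma-tubulin gene TUBG1.

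The study asked how transcripts divide between nucleus and cytoplasm when TPR, a filament-forming protein of the nuclear basket of the nuclear pore, is depleted. Cells received a lentiviral control shRNA, the shRNA TPR A or the shRNA TPR D for 5 days, and 3 replicates of each were collected. Detergent lysis split each culture into a nuclear and a cytoplasmic/ER fraction, and a share of the unfractionated cells gave the total fraction. Poly(A)+ RNA was sequenced from all of them, which gives 27 libraries. Every group is the same cell line carrying a lentiviral shRNA, and the study's methods call the replicates biological without saying how the cultures were kept apart, so the p-values measure the spread between these samples, which may be partly technical.

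Actin monomers assemble into the filaments that carry cell shape, adhesion and contraction, and beta- and gamma-actin are the isoforms made by non-muscle cells. Alpha- and beta-tubulin join as a dimer, the unit of the microtubule, and the isotypes are encoded by separate genes with very similar coding sequences. Gamma-tubulin does not build the microtubule wall but sits in the ring complex from which new microtubules grow. Alpha- and beta-tubulin mRNAs are also known for autoregulation, in which the start of the nascent tubulin chain is recognised at the ribosome by TTC5 and the mRNA is degraded when free dimer is in excess.

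The first 30 nt of the coding sequences, read from GENCODE transcripts on GRCh37 and shown 5′ to 3′ with the first 4 codons in capitals, show where the isotypes are alike and where they differ. This is the stretch from which the autoregulation signal of alpha- and beta-tubulin is translated, and it is also where the actin isoforms differ from each other.
ACTB: ATGGATGATGATatcgccgcgctcgtcgtc
ACTG1: ATGGAAGAAGAGatcgccgcgctggtcatt
TUBA1A, TUBA1B and TUBA1C: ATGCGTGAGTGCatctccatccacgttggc
TUBB: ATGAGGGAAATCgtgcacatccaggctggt
TUBB2A: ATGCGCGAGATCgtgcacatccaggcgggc
TUBB4B: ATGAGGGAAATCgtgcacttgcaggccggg
TUBB6: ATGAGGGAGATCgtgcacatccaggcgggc
TUBG1: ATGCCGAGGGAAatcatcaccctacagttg
The 30 nt were identical in the 3 alpha-tubulin genes. In those genes the first coding exon held only the 3 nt of the start codon, against 57 nt in each of the 4 beta-tubulin genes, 49 nt in TUBG1 and 123 nt in both actin genes.

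On GRCh37, ACTB lies on chromosome 7 (chr7:5566040-5603533, minus strand) and ACTG1 on chromosome 17 (chr17:79476439-79490873, minus strand). TUBA1B (chr12:49521565-49525180, minus), TUBA1A (chr12:49578469-49582863, minus) and TUBA1C (chr12:49582519-49668383, plus) stand next to each other on chromosome 12, and the annotated spans of TUBA1A and TUBA1C overlap by 345 nt on opposite strands. The libraries were made with a directional kit. TUBB (chr6:30685212-30693315, plus) and TUBB2A (chr6:3153731-3157778, minus) are on chromosome 6, TUBB4B (chr9:140135739-140138159, plus) on chromosome 9, TUBB6 (chr18:12307668-12344319, plus) on chromosome 18 and TUBG1 (chr17:40761659-40767256, plus) on chromosome 17. The annotated pre-mRNA was short in most of them, with a median over transcripts of 2112 nt for TUBA1B, 3435 nt for ACTB and 9519 nt for TUBA1C, and 17877 nt for TUBB6, the longest of the 10.

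Because the isotypes are so alike, reads can be shared between them. The 31-nt words of the members' protein-coding transcripts were sought in the coding and long non-coding transcripts of other genes. Transcripts typed as pseudogenes were not searched, so the shares may overstate how distinct the genes are. For ACTB 92.8% of the words occurred in no searched transcript of another gene, and the share was 93.1% for ACTG1 and 96.6% for TUBB6. It was 81.3% for TUBB4B, 77.7% for TUBB, 68.7% for TUBG1, 67.8% for TUBA1C, 66.9% for TUBA1A and 50.2% for TUBA1B. TUBB2A was the least distinct, with 37.1% of its words its own and 62.9% shared with TUBB2B. How the authors' quantification divided shared reads was not tested, so the values of TUBA1A, TUBA1B, TUBA1C and TUBB2A in particular are uncertain as gene values.

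From the smallest steps between low values, each FPKM of a transcript was estimated to hold 32.8 to 90.8 reads per 1 kb, depending on the library. The rarest member, TUBB2A, rested on about 1800 to 4800 reads per library and ACTB on about 230000 to 570000. Counting error was therefore at most 2.34% of a value, which covers counting only. TPR itself averaged 26.4 ± 1.57 FPKM in control total RNA (SD, n = 3), 4.17 ± 0.654 with TPR A and 4.66 ± 1.39 with TPR D, a log2 change of -2.59 (SE 0.36, limma, adjusted p = 0.0012) and -2.44 (SE 0.36, adjusted p = 0.0016). Of the 7 osteoblast and mesenchymal markers, 6 had a median above 1 FPKM in total RNA (COL1A2 was at 0.268), as had 1 of 3 epithelial markers (EPCAM, 4.27), and none of the 3 leukocyte and 3 muscle markers.

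The libraries of control replicate 2 stood apart. Genes of the mitochondrial genome took 15.8% to 24.7% of FPKM in the other 8 total libraries and 0.774% to 2.42% in the other 8 nuclear ones, but 0.738% in total control replicate 2 and 21.8% in nuclear control replicate 2. MALAT1, a nuclear lncRNA, was at 16.3 FPKM in that total library against 71.6 to 207 in the others, and at 83.6 FPKM in that nuclear library against 16.3 to 40.1. In the other cultures MALAT1 was thus lower in nuclear than in total libraries, so it gave no measure of nuclear enrichment over total. In both measures the nuclear and the total library of control replicate 2 each read like the fraction named on the other. Whether they were exchanged was not tested. The labels were kept, so each value printed for nuclear or total control replicate 2 holds only if they are right, and results that rest on this culture are given with and without it. Sample names also follow a different pattern for replicate 1 than for the other replicates, so values within each set are given for the main comparisons.

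The levels of the 10 genes spanned a range from ACTB to TUBB2A that was much wider than the spread between libraries. ACTB had a median of 4706 FPKM over the 27 libraries, with 2415 as the lowest and 8760 as the highest value, and its mean ranked between 7th and 21st of 14611 genes in the 9 groups. ACTG1 had a median of 2212 FPKM, TUBA1B of 1987, TUBB of 1650, TUBA1C of 826, TUBB4B of 600.0, TUBB6 of 273, TUBA1A of 106, TUBG1 of 99 and TUBB2A of 46.4. FPKM are scaled to transcript length, so these levels can be set beside each other. ACTB exceeded ACTG1 in all 27 libraries, and so did TUBB over TUBA1C, TUBA1C over TUBB4B, TUBB4B over TUBB6, TUBB6 over TUBA1A and TUBG1 over TUBB2A. The order was not fixed for 3 pairs of neighbours. ACTG1 exceeded TUBA1B in 21 of 27 libraries and TUBB fell below TUBA1B in 23, with the 4 exceptions all nuclear, while TUBA1A exceeded TUBG1 in 16 of 27, in 8 of 9 nuclear and in 3 of 9 cytoplasmic/ER libraries.

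Within each family the most abundant isotype held a similar share in all libraries, and the shares of the rarer ones varied more in proportion to their size. ACTB made up a median of 67% of the summed ACTB and ACTG1 level, between 60.8% and 72.5% over the 27 libraries. TUBA1B made up a median of 66.6% of the 3 alpha-tubulins (62.1% to 72.7%), TUBA1C 29.2% (23.9% to 33.5%) and TUBA1A 3.82% (1.78% to 6.05%). Among the 4 beta-tubulins TUBB made up 64.8% (61% to 70%), TUBB4B 21.4% (15.4% to 28.1%), TUBB6 10.9% (8.04% to 15.5%) and TUBB2A 1.82% (1.17% to 2.65%). The same isotype was therefore the most abundant of its family in each library, whatever the shRNA or fraction.

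**Figure D1:**
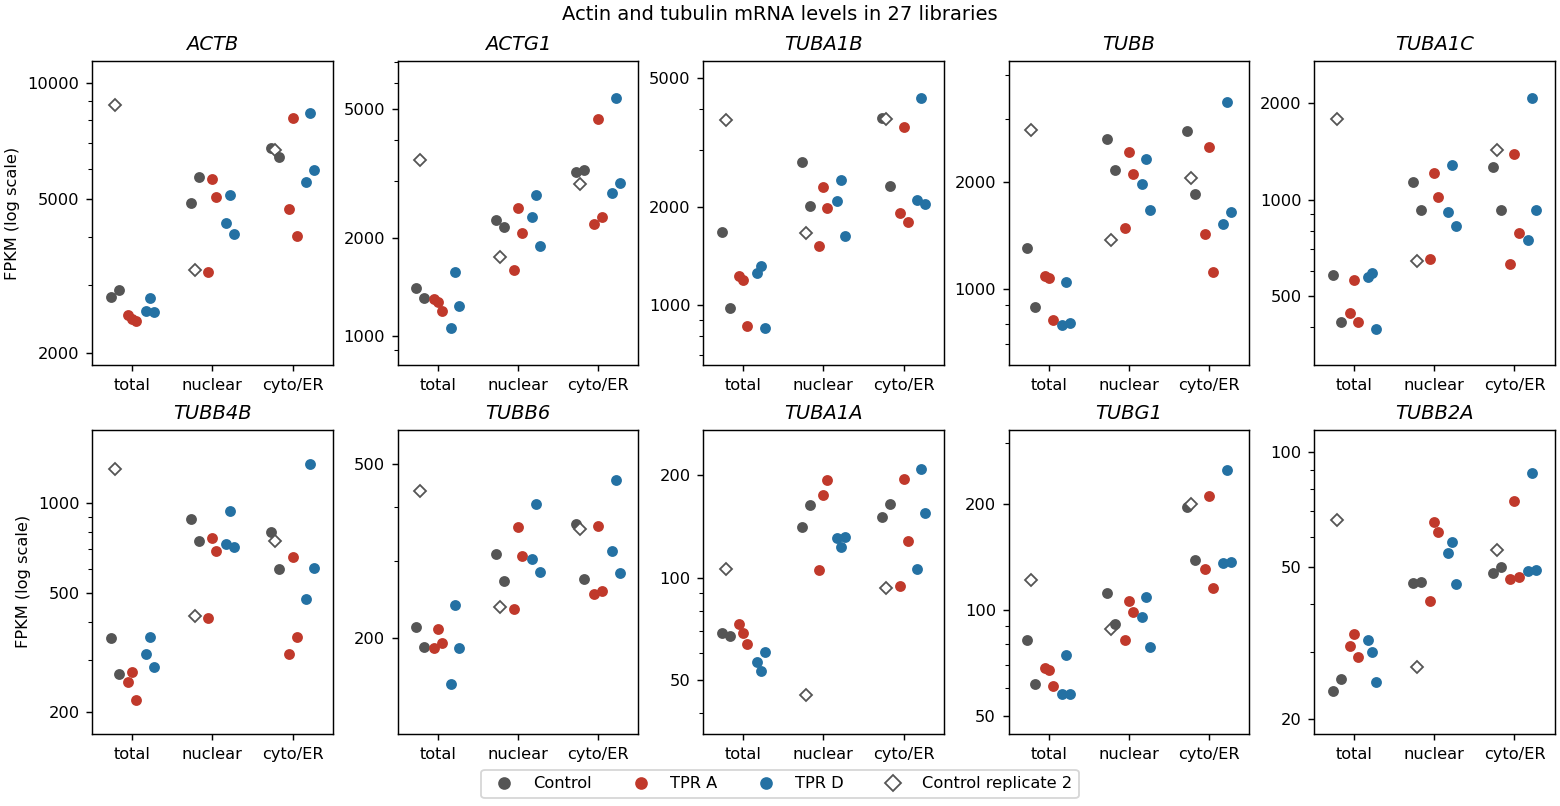
FPKM of each of the 10 genes (log axis) in the total, nuclear and cytoplasmic/ER libraries, 1 point per library, colored by shRNA, with control replicate 2 as open diamonds. The open diamond in the total column lies above all other total libraries for each gene, for example 8760 FPKM against 2415 to 2906 for ACTB.

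The first comparison was between nuclear and cytoplasmic/ER RNA, where a log2 N/C ratio of 0 stands for the typical gene. TUBG1 and ACTG1 were lower in the nuclear than in the cytoplasmic/ER libraries, ACTB and TUBA1B had negative ratios that did not pass the test, and the beta-tubulin mRNAs lay near 0. TUBG1 reached 88.7 to 112 FPKM in the control nuclear libraries and 139 to 200 FPKM in the control cytoplasmic/ER libraries. Its log2 N/C ratio was negative in 9 of 9 cultures, from -1.2 to -0.22, with a mean of -0.76 (SE 0.15, limma, adjusted p = 0.000138). ACTG1 read 2276, 1749 and 2169 FPKM in the control nuclear libraries and 3189, 2928 and 3250 FPKM in the control cytoplasmic/ER libraries. Its log2 N/C ratio was also negative in 9 of 9 cultures, from -0.98 to -0.16, with a mean of -0.56 (SE 0.18, adjusted p = 0.0118).

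These were 2 of 10 members called, both lower in the nucleus, in a comparison where 59.2% of all 14611 genes passed and 29.2% passed with the lower level in the nucleus. The median log2 N/C ratio of the 10 was -0.17, and that of all genes -0.01. ACTB, at 4881, 3286 and 5710 FPKM in control nuclei and 6770, 6693 and 6444 FPKM in control cytoplasm/ER, had a ratio of -0.42 (SE 0.19, adjusted p = 0.0585), negative in 8 of 9 cultures. TUBA1B had -0.40 (SE 0.22, adjusted p = 0.117), also negative in 8 of 9. The remaining 6 lay between -0.17 (TUBB2A) and 0.19 (TUBB4B), with adjusted p between 0.403 and 0.819. In the 3 control cultures alone TUBG1 was the only member called, at -0.83 (SE 0.26, adjusted p = 0.0131), against 39.4% of all genes in either direction and 19.2% lower in the nucleus. That call was lost without control replicate 2, where the ratio was -0.68 (adjusted p = 0.0919), and without control replicate 1, where it was -0.85.

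The ratio is relative to the typical gene. When the libraries were instead scaled to equal sums, the median of all genes moved to 0.46, ACTG1 was at -0.08 and no longer called, TUBG1 was at -0.28 and still called lower, and the 4 beta-tubulins were called higher in the nucleus (TUBB4B at 0.67, TUBB at 0.54, TUBB6 at 0.4 and TUBB2A at 0.3). The direction of TUBB2A and TUBB6 thus depended on the scaling, since they were at -0.17 and -0.08 in the main fit. TUBB and TUBB4B were above 0 in the main fit too, at 0.06 and 0.19, but were not called there. With the replicate number as a block, ACTB and TUBA1B were also called lower in the nucleus, 4 members in all, and with the culture as a block the count was 2. In replicate 1 alone TUBG1 was at -0.65 and ACTG1 at -0.39, and in replicates 2 and 3 they were at -0.81 and -0.65.

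**Figure D2:**
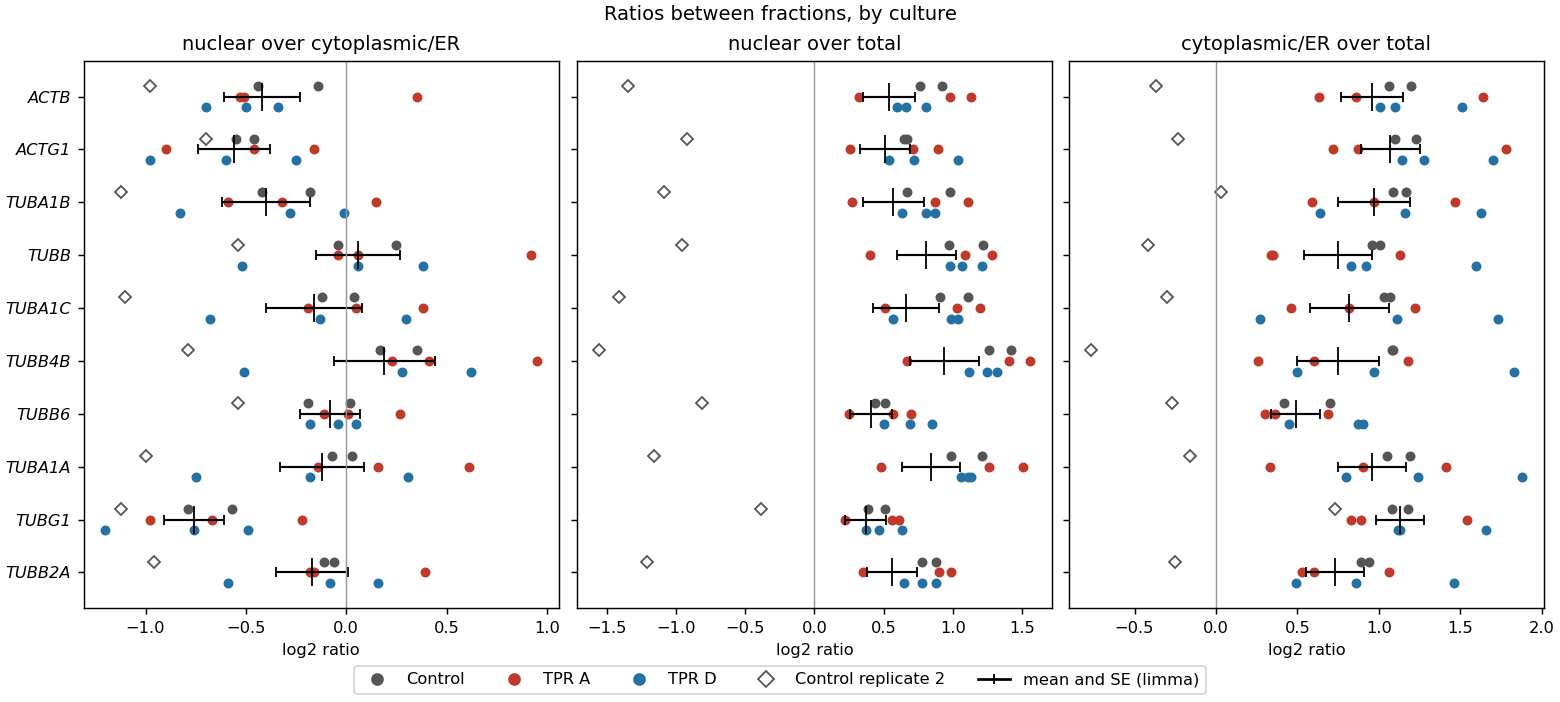
Log2 ratio of each gene between fractions, nuclear over cytoplasmic/ER, nuclear over total and cytoplasmic/ER over total, with 1 point per culture colored by shRNA, control replicate 2 as open diamonds, and the limma mean with its SE in black. TUBG1 and ACTG1 lie below 0 in all 9 cultures in the first panel, and in the second panel the open diamonds are the values below 0.

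Ratios between 2 members within the same library do not depend on the scaling of libraries, so 9 such ratios were compared between the nuclear and the cytoplasmic/ER library of each culture. These pairs were chosen after the values were seen, so the differences are given as a description, without p-values. The TUBB to ACTB ratio was higher in the nucleus in 9 of 9 cultures, with a difference in log2 ratio of 0.48 ± 0.16 (SD, n = 9). So was the ratio of TUBB to TUBA1B, the most abundant members of the beta- and alpha-tubulins, in 9 of 9 cultures, by 0.46 ± 0.15. The TUBG1 to TUBB ratio was lower in the nucleus in 9 of 9 cultures, with a difference of -0.82 ± 0.16.

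The differences between isotypes of 1 family were smaller. The TUBA1A to TUBA1B ratio was higher in the nucleus by 0.28 ± 0.16 and the TUBA1C to TUBA1B ratio by 0.24 ± 0.12, each in 9 of 9 cultures. For TUBB2A to TUBB the difference was -0.24 ± 0.17, below 0 in 9 of 9 cultures. The other 3 ratios lay on both sides of 0, with -0.14 ± 0.27 for ACTG1 to ACTB, -0.14 ± 0.29 for TUBB6 to TUBB and 0.13 ± 0.18 for TUBB4B to TUBB. Without control replicate 2 the first 6 ratios had the same direction in 8 of 8 cultures, and TUBB4B to TUBB was at 0.18 ± 0.12, above 0 in 8 of 8.

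**Figure D3:**
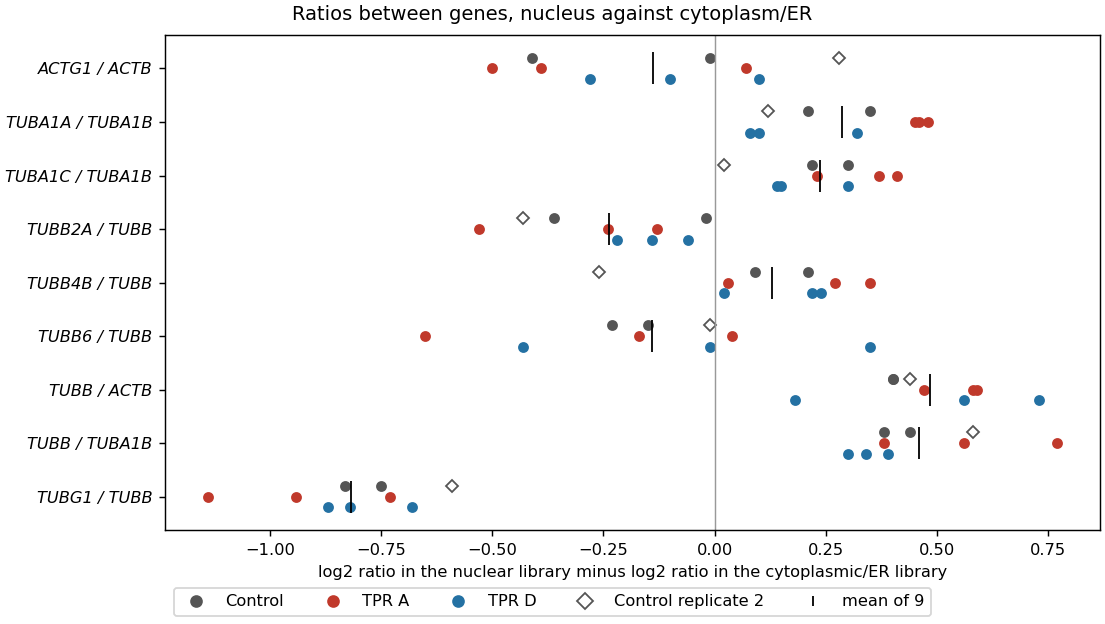
Difference between the nuclear and the cytoplasmic/ER library of a culture in the log2 ratio of 2 genes, 1 point per culture colored by shRNA, control replicate 2 as open diamonds and the mean of 9 cultures as a black bar. The TUBB / ACTB and TUBB / TUBA1B points all lie above 0 (0.18 to 0.73 and 0.3 to 0.77) and the TUBG1 / TUBB points all below it (-1.14 to -0.59).

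The mean level in total libraries was below that of both fractions for each of the 10 genes, a comparison added after the values were seen. Total RNA came from a share of the same cells before lysis. The difference therefore compares relative levels between libraries and does not locate the mRNA in the cell. Apart from control replicate 2, ACTB spanned 2415 to 2906 FPKM in the 8 total libraries, 3234 to 5710 FPKM in the 8 nuclear and 4014 to 8370 FPKM in the 8 cytoplasmic/ER ones, so the total range overlapped neither fraction. TUBB4B read 220 to 358 FPKM in total, 414 to 942 FPKM in nuclear and 314 to 1348 FPKM in cytoplasmic/ER libraries, and its total range overlapped the cytoplasmic/ER range only. TUBB2A read 23.7 to 33.4 FPKM in total, 40.8 to 65.6 FPKM in nuclear and 46.4 to 88.1 FPKM in cytoplasmic/ER libraries, without overlap.

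Because the comparisons with total were added after the values were seen, their p-values and counts are a description and no independent test. Over all 9 cultures the cytoplasmic/ER level exceeded the total level by 0.49 (TUBB6) to 1.13 (TUBG1) on the log2 scale. All 10 members passed the threshold (limma), with adjusted p from 1.08e-06 (TUBG1) to 0.012 (TUBB4B). Of all genes 63.3% passed in this comparison, and 32.1% of all genes passed with the lower level in total. The nuclear level exceeded the total level by 0.37 (TUBG1) to 0.94 (TUBB4B). Here 6 of 10 members were called, TUBA1A, TUBB, TUBB4B, TUBB2A, ACTB and TUBB6, against 22.1% of all genes in either direction and 12% lower in total. The 4 others, ACTG1, TUBA1C, TUBA1B and TUBG1, had adjusted p of 0.0512, 0.0523, 0.0601 and 0.0685. With the culture as a block, or without control replicate 2, all 10 were called, where 4608 and 6312 of all 14611 genes were. None was called without control replicate 1, control replicate 3, TPR A replicate 2 or TPR A replicate 3. Of all genes only 4, 6, 505 and 10 passed in these fits, in that order, so the loss was not particular to the members.

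Lying below both fractions was shared by other genes. The mean total level was below both fraction means for 4484 genes, 30.7% of those tested, and in each of the 8 cultures other than control replicate 2 this was so for 1432 genes, 9.8%, the 10 members among them. In control replicate 2, total exceeded nuclear for each of the 10 genes. Mitochondrial transcripts, which FPKM are scaled together with, made up 26.5% to 37.9% of FPKM in the cytoplasmic/ER libraries. Their part in these level differences was not tested. Without control replicate 1, 9 members were called in the cytoplasmic/ER comparison, and with replicates 2 and 3 only, 8. With equal sums over the kept genes the cytoplasmic/ER excess over total fell, and 2 members (TUBG1 and ACTG1) were called, while TUBB6 was at -0.18.

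The second question was whether TPR depletion changed the levels of these mRNAs. No member passed the test in total RNA with either shRNA, and the lower means in depleted cells rested on control replicate 2. ACTB read 2790, 8760 and 2906 FPKM in the control total libraries, 2509, 2449 and 2415 FPKM with TPR A, and 2568, 2770 and 2552 FPKM with TPR D. Its highest depleted library was thus below its lowest control library, but by little beside the gap to control replicate 2. With TPR A its log2 change was -0.69 (SE 0.33, limma, adjusted p = 0.385), and TPR D gave -0.58 (SE 0.33, adjusted p = 0.416). TUBB4B read 354, 1292 and 268 FPKM in control, 253, 272 and 220 FPKM with TPR A and 313, 358 and 284 FPKM with TPR D. It had the change furthest from 0 with TPR A, at -0.94 (SE 0.43, adjusted p = 0.368), and -0.57 (SE 0.43, adjusted p = 0.557) with TPR D. TUBB had the change furthest from 0 with TPR D, at -0.69 (SE 0.36, adjusted p = 0.382).

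With TPR A the 10 log2 changes ran from -0.94 to -0.08, with a median of -0.52. No member was called by limma, and 0.821% of all genes were. An unadjusted p below 0.05 was found for 2 of 10 members and 12.6% of all genes. With TPR D they ran from -0.69 to -0.17, with a median of -0.48. No member was called, and 0.753% of all genes were. An unadjusted p below 0.05 was found for none of the members and 14.6% of all genes. The median of all genes was -0.01 in both comparisons. The 2 comparisons share the control libraries. Without control replicate 2 the changes ran from -0.29 to 0.37 with TPR A and from -0.26 to 0.28 with TPR D, and 3 of 10 were above 0 in each. In replicate 1 alone they ran from -0.44 to 0.44 and from -0.65 to 0.51, and in replicates 2 and 3, which hold the outlying control, from -1.19 to -0.28 and from -0.84 to -0.32.

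TUBB2A changed sign with and without control replicate 2 under both shRNAs. It read 23.7, 66.6 and 25.4 FPKM in control, 31.1, 33.4 and 29.1 FPKM with TPR A and between 24.9 and 32.2 FPKM in the 3 TPR D libraries. Apart from control replicate 2, then, 5 of the 6 depleted libraries were above the controls. Over all libraries the log2 changes were -0.08 (TPR A) and -0.17 (TPR D), and 0.37 and 0.28 without control replicate 2 (adjusted p = 0.827 and 0.841). Within total libraries the log2 ratio of TUBB2A to TUBB, also chosen after the values were seen, was higher in depleted cells by 0.48, with 5 of 6 depleted libraries above the highest control, and by 0.51 without control replicate 2. TUBB2B, with which TUBB2A shares 62.9% of its 31-nt words, was not called over all libraries. It was at -0.3 with TPR A and -0.95 with TPR D (limma, adjusted p = 0.71 and 0.124). How reads were divided between TUBB2A and TUBB2B was not tested.

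Levels within each fraction did not pass either. In nuclear RNA the members changed by -0.13 to 0.60 with TPR A and by -0.05 to 0.45 with TPR D, and no member was called or had an unadjusted p below 0.05, where 0.903% and 0.479% of all genes were called. Without control replicate 2 the changes ran from -0.42 to 0.28 and from -0.26 to 0.22. In replicate 1 alone all 10 were below 0 with TPR A (-1.03 to -0.1), and in replicates 2 and 3 all 10 were above 0 with either shRNA. TUBA1A had the highest value with TPR A. It read 141, 45.2 and 163 FPKM in control nuclei and 105, 175 and 194 FPKM with TPR A, and these groups overlapped. In cytoplasmic/ER RNA the members changed by -0.73 (TUBB4B) to 0.12 (TUBB2A) with TPR A and by -0.25 (TUBA1B) to 0.24 (TUBB2A) with TPR D, where 0.623% and 0.575% of all genes were called and no member was, nor had any an unadjusted p below 0.05. Replicate 2 of TPR A and of TPR D had the highest cytoplasmic/ER level of its group for each of the 10 genes, for example 8123 FPKM of ACTB against 4706 and 4014 with TPR A, and 8370 FPKM against 5556 and 5935 with TPR D. With replicate 2 of the shRNA left out, the TPR A changes ran from -1.05 to -0.09, with 1 unadjusted p below 0.05, and the TPR D changes from -0.61 to -0.03, so that all 10 were below 0 with each shRNA. With replicates 2 and 3 only, all 10 TPR D changes were above 0 (0.02 to 0.55). In bulk RNA, fewer cells with an mRNA and less of it per cell cannot be told apart.

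The comparison closest to the study's question is the change of the N/C ratio upon depletion. For both TPR shRNAs together the change ran from 0.01 (ACTG1) to 0.42 (TUBB4B), with a median of 0.26 against 0 for all genes, and no member was called by limma or had an unadjusted p below 0.05. Of all genes 0% were called, and 1.72% had an unadjusted p below 0.05. With TPR A the change ran from 0.06 to 0.62, where 0% of all genes were called and 1.47% had an unadjusted p below 0.05. With TPR D it ran from -0.04 to 0.22, where 0% of all genes were called and 0.821% had an unadjusted p below 0.05. No member did with either shRNA. The precision was low in this fit, which does not pair the nuclear and cytoplasmic/ER libraries of a culture. The 95% interval of the combined change was -0.68 to 0.98 for ACTB and -0.67 to 1.51 for TUBB4B. A doubling of the N/C ratio of TUBB4B, a log2 change of 1, thus lay within its interval.

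These values also rested on control replicate 2. Its log2 N/C ratio was -0.98 for ACTB, against -0.44 and -0.14 in the other controls, and -0.79 for TUBB4B, against 0.17 and 0.35. Without it the combined change ran from -0.08 (ACTB) to 0.08, and 5 of 10 members were above 0. In replicate 1 alone the change ran from 0.00 to 0.34, and in replicates 2 and 3 from -0.04 to 0.46. The 9 ratios between members within a library differed here by -0.14 to 0.17.

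The 3298 mRNAs with a median pre-mRNA below 10 kb, which include 9 of the 10 members, had a median combined change of 0.23, and 77.3% of them were above 0. The 2376 mRNAs of 10 to 20 kb, among them TUBB6, had a median of 0.07, and the 3427 mRNAs above 50 kb had -0.20. The members' median was 0.26. Without control replicate 2 the shortest class had a median of 0.12 and the members one of 0.00, with all 10 below 0.12.

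**Figure D4:**
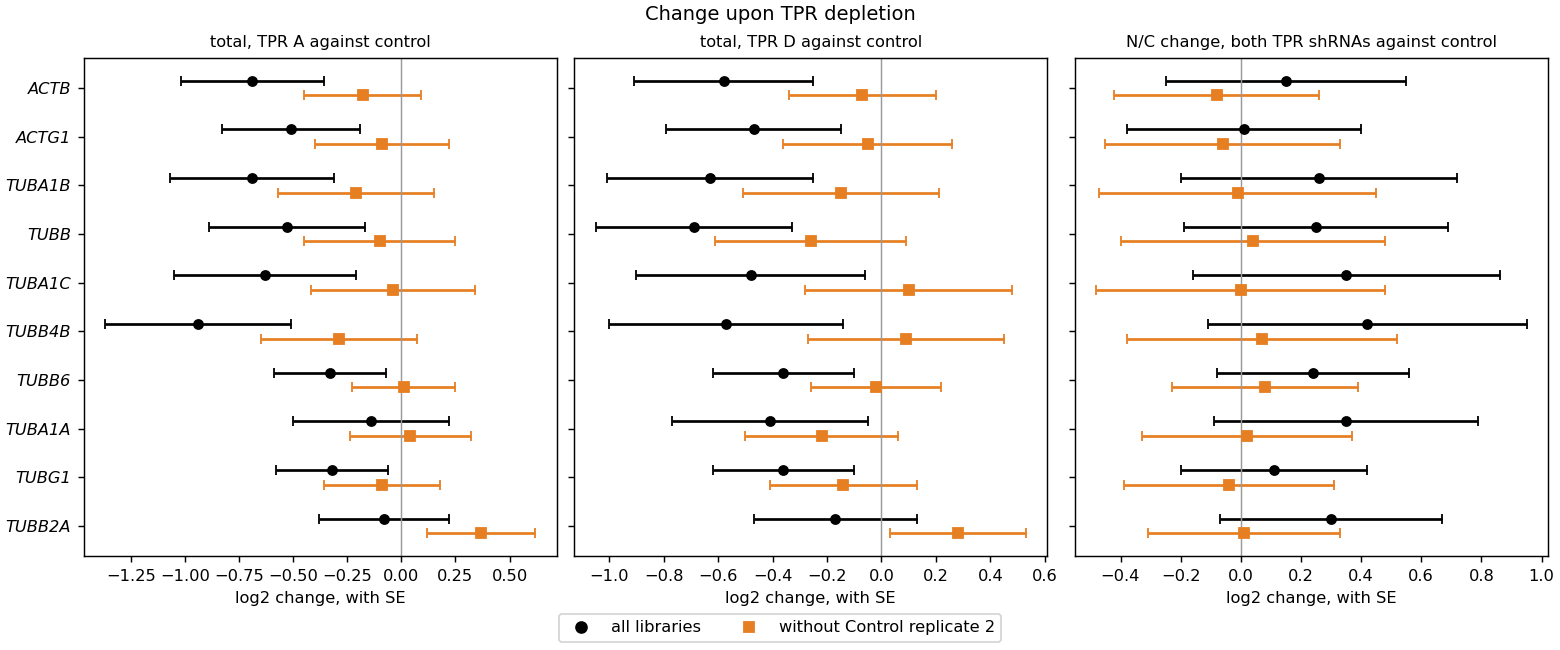
Log2 change upon TPR depletion with its SE for each gene, in total RNA with TPR A, in total RNA with TPR D, and in the N/C ratio with both shRNAs, over all libraries (black circles) and without control replicate 2 (orange squares). The squares lie nearer to 0 for most genes, between -0.08 and 0.08 for the N/C change.

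The shRNAs were also set against each other, a comparison that leaves the controls out. In total RNA the members differed between TPR D and TPR A by -0.26 (TUBA1A) to 0.37 (TUBB4B), and no member was called or had an unadjusted p below 0.05, while 0.281% of all genes were called. The difference of TUBB4B had a 95% interval of -0.52 to 1.26. The direction of the N/C difference depended on the libraries used. Over all of them the change of the N/C ratio differed by -0.41 to -0.1, again with no member called, none with an unadjusted p below 0.05, 0% of all genes called and 0.335% with an unadjusted p below 0.05. In replicate 1 alone all 10 differences were above 0 (0.07 to 0.34), and in replicates 2 and 3 all 10 were below it (-0.71 to -0.2). Without TPR A replicate 3, 5 were above and 5 below 0, and without TPR D replicate 2, 4 were above and 6 below.

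Genes that work with actin and tubulin were examined in the same fit. Of 17 other actin and tubulin genes 11 were tested, and the smooth-muscle actin ACTA2 averaged 11.3 FPKM in control total RNA, beta-III tubulin TUBB3 63.7, TUBA4A 102 and TUBA3C 154. The last is uncertain, since its near-identical copy TUBA3D was at 0.268. In the N/C comparison 6 of the 11 were called, 5 lower and 1 higher in the nucleus, with a median of -0.47, where 59.2% of all genes were called and 29.2% were lower in the nucleus. The share of this list that was called lies near that of all genes. TUBA3E, the furthest from 0, was at -1.11 (SE 0.18, adjusted p = 2.11e-05). TUBG2, the gamma-tubulin that shares 31.3% of the 31-nt words of TUBG1, was at -0.75 (SE 0.19, adjusted p = 0.00172), beside the -0.76 of TUBG1, and ACTC1 was at -0.75 (SE 0.3, adjusted p = 0.0359).

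In the gamma-tubulin ring complex 8 of 9 genes were tested and 5 called in the N/C comparison, 4 lower and 1 higher in the nucleus, again a share near the 59.2% of all genes. The small ring subunits MZT2B and MZT2A were lower, at -1.16 (SE 0.15, adjusted p = 6.62e-07) and -1.09 (SE 0.16, adjusted p = 3.47e-06), and TUBGCP6, a large scaffold subunit, was higher, at 0.99 (SE 0.15, adjusted p = 1.03e-05). Among factors that fold actin and tubulin, 19 of 20 were tested, and 6 were lower and 6 higher in the nucleus, also near the share of all genes, with a median of 0.00. CCT2, a subunit of the chaperonin CCT, was higher at 1.05 (SE 0.14, adjusted p = 1.39e-06). The prefoldin subunit PFDN4 was lower at -1.22 (SE 0.23, adjusted p = 9.16e-05), as was TBCA, a tubulin cofactor, at -0.98 (SE 0.36, adjusted p = 0.0212).

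Of the 16 genes for actin monomer binding and branching, 12 were lower and 2 higher in the nucleus, where 29.2% of all genes were lower and 59.2% called. Their median was -0.80 beside the -0.56 of ACTG1 and the -0.42 of ACTB. The Arp2/3 complex subunits ARPC1A and ARPC2 were at -1.46 (SE 0.15, adjusted p = 3.62e-08) and -1.1 (SE 0.13, adjusted p = 2.35e-07), and the monomer-binding profilin PFN1 was at -1.17 (SE 0.14, adjusted p = 2.84e-07). The 2 genes higher in the nucleus, named after their values were seen, were ACTR2 at 0.54 and ACTR3 at 0.64, which encode the actin-related core of the same complex. Of the 18 genes for SRF, its actin-sensing MRTF cofactors and their targets, 6 were higher and 8 lower in the nucleus. The median of this list was -0.27, where 29.2% of all genes were lower and 59.2% called. The 3 called genes furthest from 0 were all higher. The focal-adhesion protein vinculin, VCL, was higher at 2.47 (SE 0.19, adjusted p = 6.25e-10), the actin crosslinker FLNA at 1.8 (SE 0.27, adjusted p = 6.75e-06) and the secreted factor CCN2 at 1.55 (SE 0.31, adjusted p = 0.000161). TTC5 was at 0.06 (SE 0.13, adjusted p = 0.724), near the typical gene, and averaged 11.6 FPKM in control total RNA.

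Upon TPR depletion none of the genes of these lists was called in total RNA, in either fraction or in the N/C ratio. Few genes were called at all, 0.479% to 0.903% of all genes for the levels and 0% for the N/C ratio, so this does not set the lists apart. In total RNA with TPR A the medians were -0.24 for the other actin and tubulin genes, -0.31 for the folding factors, -0.1 for the ring complex, 0.01 for the monomer and branching factors and -0.14 for the SRF group. With TPR D they were -0.38, -0.28, -0.04, 0.04 and -0.35 in the same order. TTC5 was at -0.17 and -0.31.

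Across the 27 libraries the genes outside the members whose log2 levels followed ACTB most closely were DDX49 (Pearson r = 0.96), MDH2 (0.954) and BAG6 (0.952), and ACTG1 stood at rank 3 of 14610 genes at 0.952. TUBA1B was 80th (0.913), TUBA1C 113th, TUBB6 208th, TUBB 259th, TUBG1 261st, TUBB2A 276th, TUBB4B 412th and TUBA1A 970th. Those outside the members closest to TUBA1B were PPM1G (0.975), SUV39H1 (0.969) and TK1 (0.965). TUBA1C came 14th (0.948), TUBB 77th (0.913) and TUBA1A 1893rd (0.663). These libraries share fractions and cultures, so the correlations describe the libraries and carry no test. They include control replicate 2 and were not computed without it.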

How the data were processed

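Poly(A)+ RNA of 27 U2OS libraries (3 shRNAs, 3 fractions, 3 replicates) was analysed. The authors built a Salmon index from Gencode v.19 coding and long non-coding transcripts, summarised genes with tximport and deposited FPKM. The submitters' processing notes also name hg19 and DESeq2. Symbols, spans and sequences were taken from GENCODE release 44 on GRCh37, another release than the authors'. Of 34464 identifiers 32776 matched it.

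Genes with a mean above 1 FPKM outside the mitochondrial genome (14611) were kept. Each library was scaled by its median-of-ratios factor (0.954 to 1.06) and values transformed as log2(FPKM + 0.1), so fold changes are on that scale. A single limma 3.58.1 fit over 9 groups of 3 libraries, with a mean-variance trend, gave all comparisons. P-values were two-sided and adjusted over all kept genes (Benjamini-Hochberg, threshold 0.05). The fit was tested on simulated data with independent noise in each library, and so not on libraries that deviate together within a culture. Ratios between members were compared within libraries and are given as a description, without p-values. Reads behind a value were estimated from the spacing of low FPKM in 8269 genes with 1 transcript, after taking 260 nt off its length. Of 41460 values worth 1 to 5 reads, 88.9% came within 0.1 of whole numbers. Since the unit is FPKM, no count test was used.

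The members, gene lists and tests were chosen with earlier results of these data known. Named genes are all 10 members, list genes past the threshold (the 3 furthest from 0 where more passed), and the 3 genes most like ACTB and TUBA1B.
Alternatives were FPKM as deposited, equal sums, pseudocounts 1 and 0.01, no minimum, a minimum of 5 FPKM, each culture left out, replicate sets, replicate and culture blocks, no trend and only the shRNAs compared. Same-numbered nuclear and cytoplasmic/ER libraries of an shRNA deviated together (r from 0.223 to 0.469). With the total library, r ran from -0.432 (control replicate 2) to 0.45 for nuclear libraries. For cytoplasmic/ER libraries it ran from -0.0323 to 0.408, so total libraries paired less evenly.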

Additional observations from a re-analysis of the deposited data

How the results depend on the processing

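No comparison of TPR-depleted with control cells, or of TPR D with TPR A, called a member under any alternative run. For nuclear against cytoplasmic/ER RNA over all cultures, 2 members were called. There were 5 with equal sums and 2 to 3 with a culture left out. The replicate number as a block gave 4 (ACTB and TUBA1B joined), and the culture as a block 2. Between shRNAs, same-numbered libraries of a fraction correlated above 0.1 in every pair for TPR A with TPR D in nuclear and in cytoplasmic/ER RNA and for control with TPR A in total RNA, and not for the other 6 combinations, so the numbers paired part of the libraries. In the comparisons of shRNAs the block called no member. In control cultures alone, 1 member was called, 0 with equal sums or with replicates 2 and 3 only, and 0 to 1 with a culture left out. For nuclear against total RNA, 6 were called, 10 as deposited or with either block, 0 with replicates 2 and 3 only, and 0 to 10 with a culture left out (0 without control replicate 1, control replicate 3, TPR A replicate 2 or TPR A replicate 3, and 10 without control replicate 2). In the fits with 0 members called, at most 505 of all genes passed, against 3235 in the main fit and 6312 without control replicate 2. For cytoplasmic/ER against total RNA, 10 were called, 2 with equal sums and 8 with replicates 2 and 3 only. With a culture left out, 9 to 10 were called (9 without control replicate 1). Of all genes 9247 passed in the main fit, 9807 with equal sums, 7968 with replicates 2 and 3 only and 8375 without control replicate 1. The cause was not tested. The comparisons of each fraction with total RNA were added after the values were seen, so their counts are a description.

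Signs of values that were not called also turned. With equal sums the N/C ratio was 0.06 for ACTB, 0.36 for TUBA1A, 0.08 for TUBA1B, 0.32 for TUBA1C, 0.3 for TUBB2A and 0.4 for TUBB6, and cytoplasmic/ER over total was -0.18 for TUBB6, the single called value that turned. For TUBB the N/C ratio was -0.04 without TPR A replicate 3 and -0.01 without TPR D replicate 1, and at most 0.14 with another culture left out. In total RNA with TPR A, TUBB2A was at 0.07 with equal sums, and without control replicate 2 TUBB2A was at 0.37, TUBA1A at 0.04 and TUBB6 at 0.01. With TPR D and without control replicate 2, TUBB2A was at 0.28, TUBA1C at 0.1 and TUBB4B at 0.09. The other ends of the range with a culture left out were -0.33, -0.24 and -0.53 for the former and -0.43, -0.89 and -0.99 for the latter genes, in the orders given. The combined N/C change was -0.07 for ACTB, -0.21 for ACTG1 and -0.11 for TUBG1 with equal sums, and -0.08, -0.06 and -0.04 without control replicate 2, where TUBA1B was at -0.01; with other cultures left out it reached 0.34, 0.11 and 0.24 for the same 3 genes and 0.46 for TUBA1B. For ACTG1 it was also -0.02 with a minimum of 5 FPKM, -0.08 without TPR A replicate 3 or TPR D replicate 1, and -0.04 with replicates 2 and 3 only. Equal sums moved the median of all genes to 0.46 for N/C over all cultures, 0.59 in control cultures, 0.14 in total RNA with each shRNA, -0.22 for the combined N/C change, -0.2 for nuclear and -0.62 for cytoplasmic/ER over total.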
